A study of Mus musculus with 16 samples.

Results

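Apolipoproteins are the protein components of lipoprotein particles, and 7 of them (Apob, Apoa1, Apoa2, Apoa4, Apoc1, Apoe and Apoh) were followed here in mouse liver and in mouse embryonic stem (ES) cells. The members were the probe sets of an Affymetrix mouse U74Av2 array whose only gene symbol in the platform annotation is one of these names. That gave 9 probe sets of 12488 on the array, with 2 each for Apoa2 and Apoe and 1 for each other gene. RNA from 16 samples was hybridised to one array each. The livers came from mice whose background mixed 129/SvJ with C57BL6/J, 2 labelled Abca1 +/- and 2 labelled +/+. The 12 ES cell samples were 3 of an Abca1 +/- line, 3 of a Cdk4 +/- line, 3 of E14, the +/+ line set against the Cdk4 mutant, and 3 of ESVJ, the +/+ parent of the Abca1 mutant. The Abca1 +/- and ESVJ cells had been grown on irradiated embryonic fibroblast feeders, depleted of them and replated on gelatin, whereas the Cdk4 +/- and E14 cells grew without feeders. Abca1 encodes the transporter that hands cellular cholesterol and phospholipid to lipid-poor Apoa1, and Cdk4 encodes a kinase of the G1 phase of the cell cycle. The labels name no clone, sex or age and do not say whether ES replicates were separate cultures, so that p-values measure only the spread between these samples.

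Lipoproteins carry triglyceride and cholesterol through blood. Apob is the non-exchangeable scaffold of very low and low density lipoproteins, Apoa1 is the main protein of high density lipoprotein with Apoa2 as its companion, and Apoa4, Apoc1 and Apoe are exchangeable proteins that move between particles. Apoe is also the ligand that lets receptors of the low density lipoprotein receptor family clear remnants, Apoc1 hinders that clearance, and Apoh (beta-2-glycoprotein I) binds phospholipid and is the main antigen of antiphospholipid antibodies. The liver secretes most of them, while Apoe is also made by many other cell types.

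The stretch of 250 bases before the start of transcription is shown for the members on which the results turn: Apob, Apoa1 and its neighbour Apoa4, and Apoe, which was measured in both liver and ES cells. The sequences are those of RefSeq on GRCm38.p6, and 6 of the 7 genes were matched to a window. Capitals mark matches to 4 motifs searched on both strands: CAAAGGTC and CAAAGTCC, forms of the direct repeat bound by Hnf4a, the TATA sequence TATAAA, and GGGCGG, the box of Sp1. Apob lies on the plus strand at chr12:7977427-7977676, Apoa1 on the plus strand at chr9:46228380-46228629, Apoa4 on the plus strand at chr9:46240594-46240843 and the first of 3 Apoe starts on the minus strand at chr7:19699189-19699438.
Apob: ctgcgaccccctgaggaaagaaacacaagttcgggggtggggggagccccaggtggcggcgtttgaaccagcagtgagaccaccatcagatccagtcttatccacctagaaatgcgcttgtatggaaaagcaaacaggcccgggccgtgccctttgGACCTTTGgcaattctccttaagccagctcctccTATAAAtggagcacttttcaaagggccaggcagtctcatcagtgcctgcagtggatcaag
Apoa1: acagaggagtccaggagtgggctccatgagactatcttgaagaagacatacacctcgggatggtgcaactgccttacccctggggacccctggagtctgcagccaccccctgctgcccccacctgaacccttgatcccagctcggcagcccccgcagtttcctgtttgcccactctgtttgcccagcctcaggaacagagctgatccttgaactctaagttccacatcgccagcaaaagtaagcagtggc
Apoa4: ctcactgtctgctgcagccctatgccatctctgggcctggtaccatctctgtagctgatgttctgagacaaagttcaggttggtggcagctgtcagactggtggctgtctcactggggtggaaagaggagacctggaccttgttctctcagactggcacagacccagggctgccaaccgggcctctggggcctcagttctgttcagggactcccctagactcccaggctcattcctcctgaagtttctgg
Apoe: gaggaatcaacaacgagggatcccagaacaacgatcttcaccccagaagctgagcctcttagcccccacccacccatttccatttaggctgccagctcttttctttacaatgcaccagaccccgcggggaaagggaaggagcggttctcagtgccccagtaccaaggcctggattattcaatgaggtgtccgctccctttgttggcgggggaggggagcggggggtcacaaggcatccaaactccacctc
The Apob window held CAAAGGTC on the minus strand, beginning 94 bases before the start, and TATAAA on the plus strand, beginning 60 bases before it. Of 32851 promoter windows of this length, 1.01% held CAAAGGTC and 12.4% held TATAAA. The other shares were 1.2% for CAAAGTCC and 32.7% for GGGCGG. The Apoa1, Apoa4 and first Apoe windows held none of the 4, which says only that these letters are not in those windows. Among the windows not printed, TATAAA was also in that of the second Apoe start, 2 times, and in that of the second Apoa2 start. The motifs were chosen with the sequences in view, and a match is a description of letters.

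Signals were rescaled so that each array had a trimmed mean of 500, and tests used log2(signal + 32). A probe set was tested where its mean over the arrays of a fit was at least 100, and passed where the Benjamini-Hochberg adjusted p of limma over all probe sets tested was under 0.05. Pairs of arrays of one ES group correlated with Pearson's r of 0.970 to 0.990, the livers labelled Abca1 +/- at 0.937 and the livers labelled +/+ at 0.968, each across probe sets, which are not independent replicates. Pairs of livers with different labels correlated at 0.900 to 0.962, the highest of these above the value of the livers labelled Abca1 +/-. Replicate 1 of the livers labelled Abca1 +/- stood apart in its control probes, with a ratio of 3' to 5' Gapdh signal of 4.10 and of actin signal of 8.23. The other liver labelled Abca1 +/- had ratios of 1.13 and 2.14, the livers labelled +/+ had Gapdh ratios of 0.919 and 0.815, and the 12 ES arrays had Gapdh ratios of 0.801 to 1.19. Tissue identity followed the labels: albumin (Alb) averaged 52162 ± 9078 in the +/+ livers (SD, n = 2), against 74.3 ± 7.85 in E14 and 134 ± 18.8 in ESVJ (SD, n = 3 each), and Pou5f1, a pluripotency factor, averaged 9.57 ± 5.39 in the +/+ livers, against 7084 ± 537 in E14 and 10679 ± 1368 in ESVJ.

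The probe sets of the mutated gene disagreed in liver, and neither passed. The Abca1 probe set 94354_at read 699 and 555 in the livers labelled Abca1 +/-, against 327 and 301 in the livers labelled +/+, a difference of 0.92 on the log2 scale with an adjusted p of 0.191. A second Abca1 probe set, 97198_at, read 41.5 and 161 in the livers labelled Abca1 +/-, against 295 and 140 in the livers labelled +/+ (log2 difference -0.996, adjusted p = 0.366). The second went the way of the label and the first against it. Where these probes lie relative to the mutation is not given in the sources used here, so every direction given for the livers below is that of the label. In ES cells 94354_at read 94.0, 115 and 123 in Abca1 +/- cells, against 178, 144 and 102 in ESVJ, and the groups overlapped (log2 difference -0.26, adjusted p = 0.9997). Cdk4 (160538_at) read 3448, 3854 and 3731 in Cdk4 +/- cells, against 5822, 5498 and 5827 in E14, and was lower in all 3 Cdk4 +/- samples (log2 difference -0.63, adjusted p = 0.00436). A second Cdk4 probe set, 101017_at, went the same way but did not pass (log2 difference -0.70, SE 0.24, adjusted p = 0.104).

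Across the study, Apoe and Apoc1 were the apolipoproteins read clearly in ES cells, and Apob, Apoa1, Apoa2, Apoa4 and Apoh were read mainly in liver. Apoe (95356_at) read 41399 and 58740 in the +/+ livers, against a lowest, median and highest signal of 5337, 7208 and 11005 over the 12 ES arrays. Apoc1 (93354_at) read 36247 and 51561 in the +/+ livers, against 331, 553 and 861 as the lowest, median and highest of the ES arrays. Against the +/+ ES arrays alone, no +/+ liver overlapped for either gene, as for 24.9% of the probe sets tested between +/+ livers and +/+ ES cells, in the same direction.

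The remaining 5 genes, with Apoa2 read by its probe set 161924_f_at, were below the filter of 100 on every ES array, except for Apoa4 on 1 of them. Apoa1 (96094_at) read 36292 and 51535 in the +/+ livers and 12.5 to 28.2 over the 12 ES arrays. Apoa2 (161924_f_at) read 19465 and 23604 in the +/+ livers and 6.86 to 80.3 in ES cells. Apoa4 (100078_at) read 18852 and 14977 in the +/+ livers and 27.6 to 107 in ES cells. For Apoh (94318_at) the +/+ livers read 16279 and 9331, and the ES arrays 2.77 to 15.3. Apob (96792_at) read 789 and 715 in the +/+ livers and 16.8 to 59.8 in ES cells.

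Set against both +/+ ES lines, the +/+ livers were higher by 2.73 on the log2 scale for Apoe (SE 0.19, adjusted p = 2.5257e-08) and by 6.23 for Apoc1 (SE 0.20, adjusted p = 2.03833e-11), the pair that met the filter in both tissues. This fit takes its spread mostly from the ES arrays, so its SE and p-values do not measure the spread between livers. An exact permutation test gave p = 0.0357 for each of the pair, the smallest value possible. In the +/+ livers Apoe stood at 90.5% and 100% of the highest signal on the array, Apoc1 at 79.2% and 87.8% and Apoa1 at 79.3% and 87.7%. Saturation was not tested, so differences of these 3 genes from or between livers are given as measured at the top of the range. In this comparison 26.9% of the 7802 probe sets tested were higher in liver, and the median of all of them was -0.43. For Apob the difference was 3.36 (SE 0.24), for Apoa1 9.74 (SE 0.20), for Apoa2 8.61 (SE 0.26), for Apoa4 7.75 (SE 0.22) and for Apoh 8.16 (SE 0.24). Those 5 met the filter only through their liver signals, so a difference in this direction followed from the filter and is given as a description. Their size also depends on the pseudocount, with Apoh ranging over 6.80 to 10.02 and Apoa1 over 8.51 to 11.14 across the alternatives. In bulk tissue fewer cells of a type and less RNA per cell cannot be told apart.

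The second probe sets of Apoa2 and Apoe gave no such contrast. Apoa2 (99648_at) read 98.3 and 137 in the +/+ livers, and 30.6 to 112 in ES cells, so the groups overlapped. Apoe (161321_i_at) read 14.3 and 11.2 in the +/+ livers and 4.96 to 89.0 in ES cells. Neither met the filter in the tissue comparison, and both probe sets disagreed there with the other probe set of the same gene. The suffix _f_at of the brighter Apoa2 probe set marks probes shared by a sequence family, and _i_at marks a set with an incomplete number of probes.

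**Figure D1:**
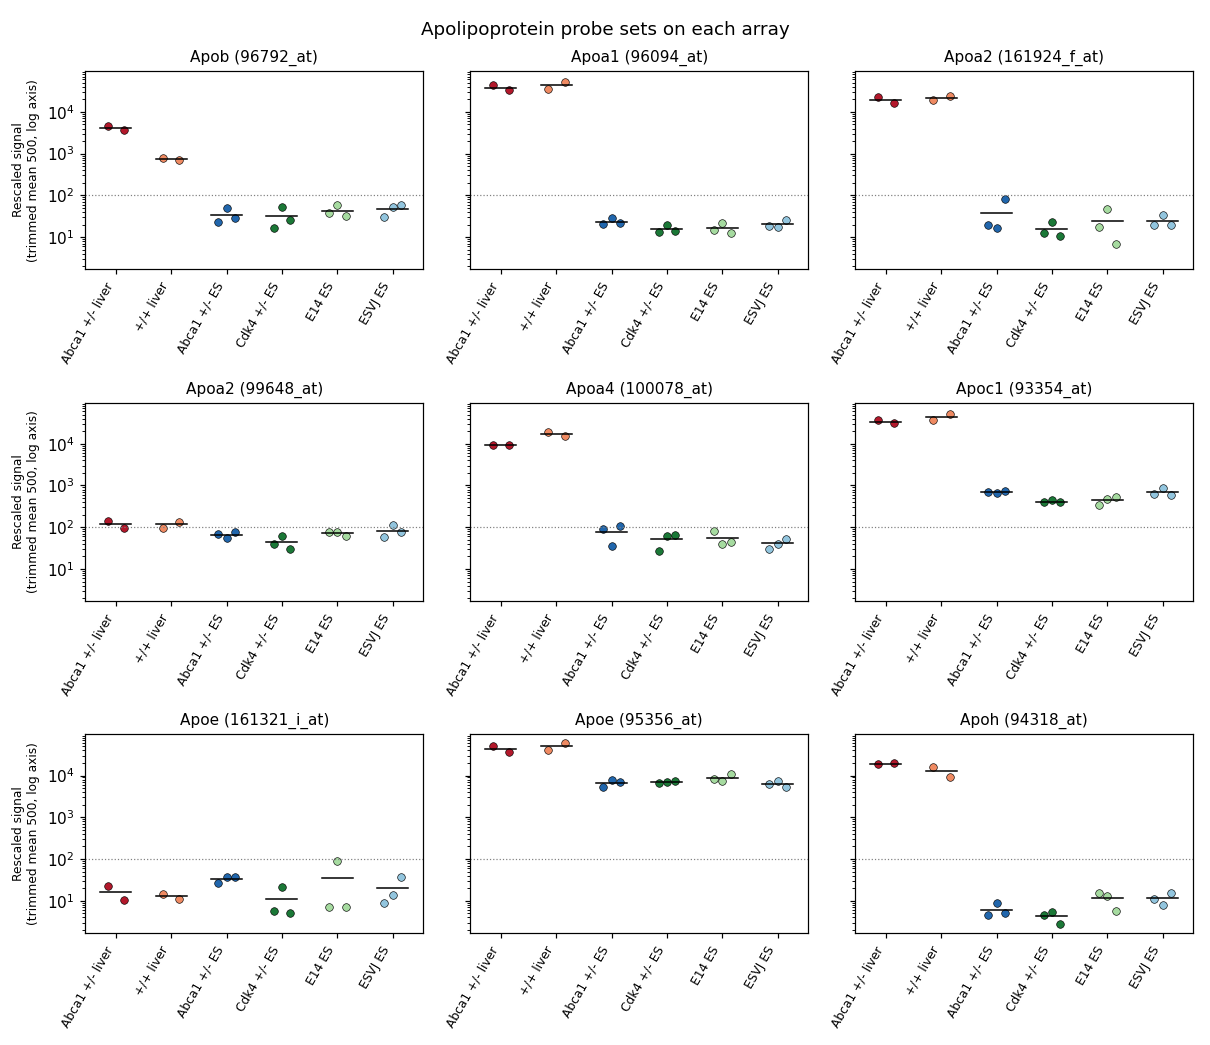
Rescaled signal of each of the 9 apolipoprotein probe sets on every array (log axis; points are arrays, bars are group means, and the dotted line is the filter of 100). Apob stands higher in the livers labelled Abca1 +/- than in the livers labelled +/+, and of the 9 only Apoc1 (93354_at) and Apoe (95356_at) lie above 100 on all 12 ES arrays.

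Apob was the member that differed most between the livers. It read 4555 and 3749 in the livers labelled Abca1 +/-, against 789 and 715 in the livers labelled +/+. Both livers labelled Abca1 +/- were above both livers labelled +/+, by 2.41 on the log2 scale (SE 0.33, 95% interval 1.67 to 3.15), or 5.32-fold. Its p ranked 2 among the 7160 probe sets tested and its upward difference ranked 16, but limma's adjusted p was 0.0984, above the threshold of 0.05. Only 0.014% of the probe sets tested passed, a single one for Nav2 (adjusted p = 0.0281), whereas 18.4% had an unadjusted p under 0.05. The exact permutation test of 2 against 2 cannot go below 0.333, the value Apob reached.

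The size held across alternatives while the call did not. With no signal filter the adjusted p was 0.0200, and with all 16 arrays in one fit it was 0.000117. The latter fit takes its spread mostly from the ES arrays, which vary less than the livers, so its p does not measure the spread between livers. Leaving out any 1 of the 4 livers left a group with 1 array, so only the size is given, with log2 differences of 2.27 to 2.55. Without the liver whose Gapdh ratio was 4.10 the difference was 2.27, the lowest of these 4 values, with 1 array left in its group. Other settings gave an adjusted p of up to 0.231, and over all 12 alternatives the difference lay between 1.90 and 2.55.

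None of the members passed in the livers. Apoa1, the main protein of high density lipoprotein, read 43471 and 33061 in the livers labelled Abca1 +/-, against 36292 and 51535 in the livers labelled +/+, and the groups overlapped (log2 difference -0.19, SE 0.34, adjusted p = 0.818). Apoa2 (161924_f_at) read 22538 and 16630 in the livers labelled Abca1 +/-, against 19465 and 23604 in the livers labelled +/+, also overlapping (log2 difference -0.15, SE 0.33). Its second probe set read 143 and 97.1 in the livers labelled Abca1 +/-, against 98.3 and 137 in the livers labelled +/+ (log2 difference 0.02, SE 0.46).

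Apoa4, an exchangeable protein of chylomicrons and high density lipoprotein, was lower in both livers labelled Abca1 +/-. It read 9578 and 9328 there, against 18852 and 14977 in the livers labelled +/+ (log2 difference -0.83, SE 0.32, 95% interval -1.55 to -0.11, adjusted p = 0.223). Apoc1 read 36049 and 30882 in the livers labelled Abca1 +/-, against 36247 and 51561 in the livers labelled +/+, and did not overlap (log2 difference -0.37, SE 0.33, adjusted p = 0.587). Apoe read 50716 and 37355 in the livers labelled Abca1 +/-, against 41399 and 58740 in the livers labelled +/+, and overlapped (log2 difference -0.18, SE 0.34, adjusted p = 0.830). Apoh read 18525 and 20221 in the livers labelled Abca1 +/-, against 16279 and 9331 in the livers labelled +/+, without overlap (log2 difference 0.65, SE 0.36, adjusted p = 0.363). In all, 4 of the 8 member probe sets tested did not overlap between the liver groups, beside 51.7% of all those tested, which is near the background. The median difference of the 8 was -0.16, against 0.11 over all probe sets tested, the latter moving to -0.03 under quantile normalization.

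**Figure D2:**
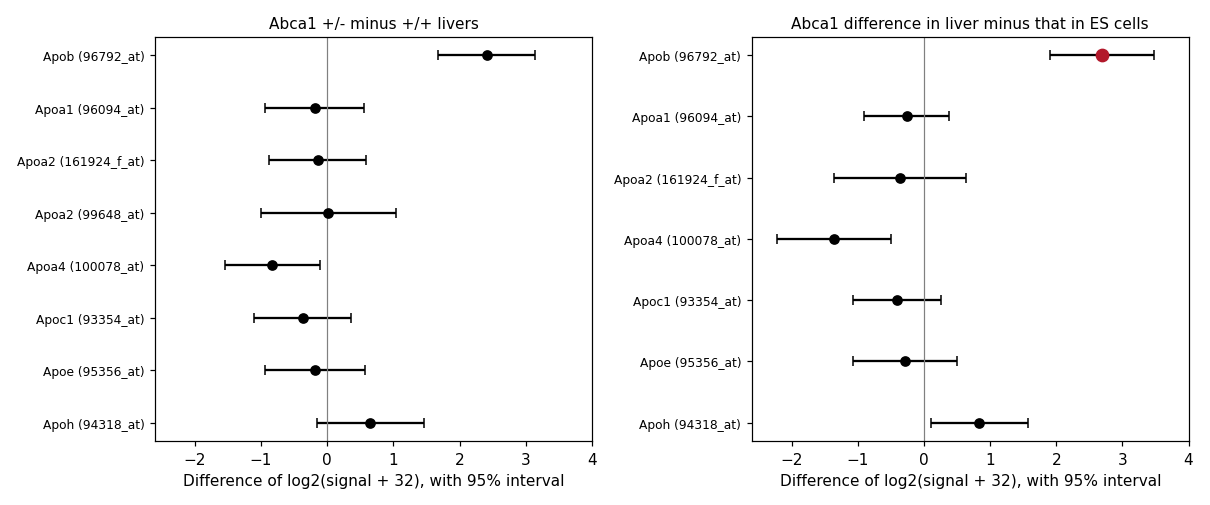
Difference of log2(signal + 32) with its 95% interval for each member probe set tested, as livers labelled Abca1 +/- minus livers labelled +/+ (left) and as that difference minus the one between Abca1 +/- and ESVJ ES cells (right; the red point passed the threshold). Apob is at 2.41 on the left and 2.69 on the right, where its ES signals were all below the filter of 100, and Apoa4 is at -0.83 and -1.36.

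The Abca1 difference in liver was also set against the one in ES cells, as an interaction of tissue and label. It could be read in both tissues for Apoc1 and Apoe alone, at -0.41 (SE 0.31, 95% interval -1.07 to 0.26) and -0.29 (SE 0.36, 95% interval -1.07 to 0.49), neither passing. Apob read 23.4 to 49.4 in Abca1 +/- ES cells and 30.4 to 59.8 in ESVJ, all below the filter and near the pseudocount, and met the filter through its liver signals. Its interaction of 2.69 (SE 0.36, adjusted p = 0.0160, beside 2.02% of the 7883 probe sets tested that passed in that direction) therefore restates the liver difference, which did not pass, and does not show that the tissues differed. Its adjusted p was above the threshold without replicate 3 of the Abca1 +/- ES cells (0.0582) and without replicate 3 of ESVJ (0.0513), at 2.64 and 2.58. Apoa4 at -1.36 (SE 0.40) and Apoh at 0.83 (SE 0.34) have the same limit and are given as values. The interaction was fitted on the livers together with the Abca1 +/- and ESVJ ES arrays. Its spread came mostly from the ES arrays, so these SE and p-values do not measure the spread between livers.

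Genes that assemble, bind, receive and control lipoproteins were counted in the same liver comparison. None of the 11 tested genes of lipoprotein assembly and secretion passed, and their median difference was 0.15. The smallest p-values belonged to Sar1b, a GTPase of the vesicles that carry lipoproteins out of the endoplasmic reticulum, at -1.85 (SE 0.58, adjusted p = 0.166), and Apobec1, the deaminase that edits Apob mRNA, at 1.16 (SE 0.46, adjusted p = 0.225). Apobec1 averaged 383 ± 236 in the livers labelled Abca1 +/- and 140 ± 36.5 in the livers labelled +/+ (SD, n = 2 each). None of 13 other apolipoproteins and lipoprotein-bound proteins passed, with Pltp, a phospholipid transfer protein, at 1.15 (SE 0.34, adjusted p = 0.146) and Saa2, an acute phase apolipoprotein, at 2.94 (SE 1.22, adjusted p = 0.242). Among 10 receptors and lipases Lrp1 was at 1.26 and Angptl4, an inhibitor of lipoprotein lipase, at -1.10, and none passed. None of 9 cholesterol and phospholipid transporters passed either, their median being 0.45.

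Transcription factors of liver and sterol genes had a median difference of 0.72, with 15 of 19 above 0 and none passing, 8 higher and 1 lower at an unadjusted p under 0.05. As background, 18.4% of all probe sets tested in the livers had such a p in either direction, and their median difference was 0.11. Cebpb and Cebpa, factors of the hepatocyte and of its acute phase response, were at 1.81 (SE 0.33, adjusted p = 0.101) and 1.15 (SE 0.36, adjusted p = 0.165). The one lower at an unadjusted p under 0.05 was Hnf4a, at -1.28 (SE 0.43, adjusted p = 0.179). The part of these factors in the Apob difference was not tested. Of 13 genes of cholesterol synthesis none passed, with Hmgcs1 at 1.36 and Lss at 1.20. The summed signal of this list was 8329 to 24151 in the livers labelled Abca1 +/-, against 9146 to 12439 in the livers labelled +/+. The livers labelled Abca1 +/- thus lay on both sides of the others. Of 13 fasting and PPARA genes none passed, with 7 above 0 and a median of 0.22. Cpt1a, the gate of mitochondrial fatty acid oxidation, was at 1.67, and Angptl4 and Acot1 were at -1.10 and -0.86.

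Markers of liver state are set beside these values, and none of the acute phase, macrophage and hepatocyte markers passed. Acute phase genes had a summed signal of 129183 to 274088 in the livers labelled Abca1 +/-, against 106543 to 125313 in the livers labelled +/+, with 8 of 16 higher at an unadjusted p under 0.05 and a median of 0.95. Over all probe sets tested, 18.4% had such a p in either direction and the median was 0.11. Mt2 and Mt1, metallothioneins induced by stress, were at 2.78 and 2.26 (limma's adjusted p = 0.101 and 0.106). Macrophage and Kupffer cell markers summed to 10592 to 16900 in the livers labelled Abca1 +/-, against 7765 to 9870 in the livers labelled +/+, with 12 of 13 above 0. The share above 0 over all probe sets was not counted. Csf1r, the receptor of macrophage growth factor, was at 1.84 (adjusted p = 0.114). Hepatocyte markers summed to 333067 to 420722 in the livers labelled Abca1 +/-, against 354375 to 425031 in the livers labelled +/+, and overlapped. The part of these genes in the Apob difference was not tested.

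**Figure D3:**
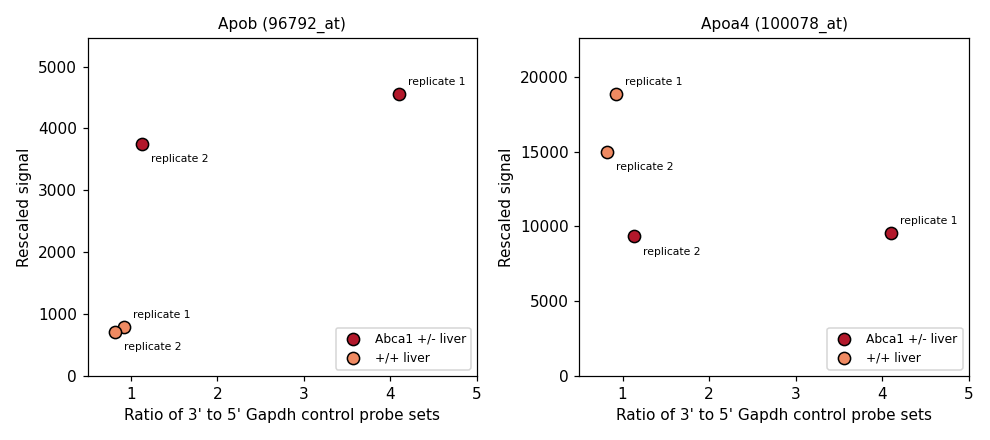
Rescaled signal of Apob and Apoa4 in each of the 4 livers (y) against the ratio of 3' to 5' Gapdh control signal on the same array (x). The liver labelled Abca1 +/- with a ratio of 4.10 and the one with a ratio of 1.13 read 4555 and 3749 for Apob.

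In ES cells only Apoc1 and the probe set 95356_at of Apoe met the filter, so the mutant lines could be compared for these alone. Apoc1 averaged 698 ± 47.7 in Abca1 +/- cells and 690 ± 149 in ESVJ (SD, n = 3 each), and the groups overlapped (log2 difference 0.03, SE 0.17, 95% interval -0.34 to 0.40). Apoe averaged 6812 ± 1326 in Abca1 +/- cells and 6290 ± 939 in ESVJ (SD, n = 3 each), also overlapping (log2 difference 0.11, SE 0.17, 95% interval -0.26 to 0.47, adjusted p = 0.9997 for both). Neither passed, beside 0.0272% of the 7349 probe sets tested, of which 7.93% did not overlap between the groups.

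In the Cdk4 pair, Apoc1 averaged 409 ± 25.2 in Cdk4 +/- cells and 444 ± 99.7 in E14 (SD, n = 3 each; log2 difference -0.09, SE 0.17, adjusted p = 0.836). Apoe averaged 7136 ± 432 in Cdk4 +/- cells and 8898 ± 1911 in E14 (SD, n = 3 each; log2 difference -0.30, SE 0.17, 95% interval -0.66 to 0.07, adjusted p = 0.355). Both overlapped between the groups, where 24.9% of the probe sets tested did not, and neither passed, beside 4.91% that did.

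The +/+ lines differed from each other in these genes, in opposite directions. Apoc1 read 331, 481 and 520 in E14, against 622, 861 and 586 in ESVJ, without overlap (log2 difference -0.60, SE 0.17, adjusted p = 0.0117). Apoe read 8414, 7276 and 11005 in E14, against 6306, 7221 and 5344 in ESVJ, without overlap (log2 difference 0.49, SE 0.17, adjusted p = 0.0327). As background, 42.6% of the 7349 probe sets tested passed between these lines, 19.8% higher and 22.8% lower in E14, and 52% did not overlap, so calls are common here. This comparison uses the control arrays of both mutant comparisons above.

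Within an array the log2 ratio of Apoc1 to Apoe averaged -4.23 ± 0.36 in E14 and -3.14 ± 0.13 in ESVJ (SD, n = 3 each). The difference of -1.09 restates the opposite differences of the 2 genes on the same arrays and is no separate result. An exact permutation test of it gave p = 0.1, the smallest value possible with 3 arrays a group. The mutant lines gave ratios of -3.21 ± 0.31 in Abca1 +/- cells and -4.02 ± 0.12 in Cdk4 +/- cells (SD, n = 3 each), which differed from their own +/+ lines by -0.07 and 0.21.

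The calls between E14 and ESVJ depended on single arrays. Apoc1 lost its call without replicate 2 of ESVJ (adjusted p = 0.0648) and without replicate 1 of E14 (0.0655), at differences of -0.44 and -0.42. Apoe lost it in 7 of 21 alternatives, with adjusted p-values of 0.0510 to 0.156, and over all 21 its difference lay between 0.32 and 0.66. Line, feeder culture and RNA method cannot be told apart in this comparison.

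**Figure D4:**
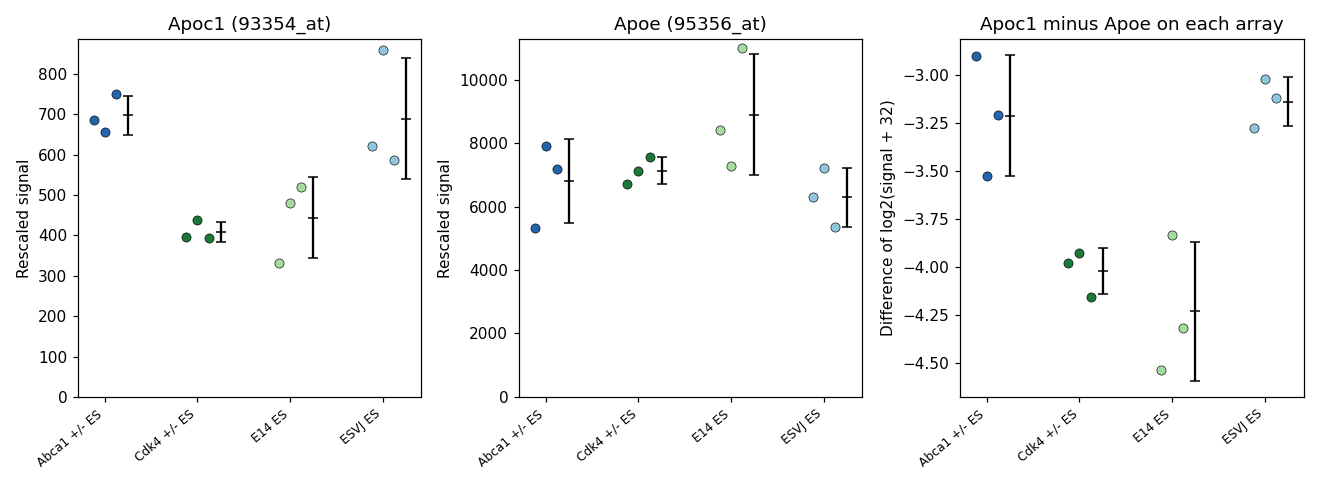
Rescaled signal of Apoc1 (left) and Apoe (middle), and the log2 difference between them on each array (right), in the 4 ES groups (points are arrays, and bars beside them are mean and SD, n = 3 each). The log2 ratio averages -3.21 in Abca1 +/-, -4.02 in Cdk4 +/-, -4.23 in E14 and -3.14 in ESVJ cells.

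Cell state markers differed along with these genes. ES cell markers summed to 38241 to 46599 in E14, against 63379 to 70776 in ESVJ, with 12 of 14 lower and 2 higher. Visceral and primitive endoderm markers summed to 27962 to 32025 in E14, against 7049 to 7290 in ESVJ, with 7 higher and 6 lower of 16; the keratins Krt8, Krt18 and Krt19 were higher by 4.37, 4.87 and 4.95. Keratins are general epithelial genes, and of the same list Lama1, a laminin chain of basement membrane, was lower at -1.80 and Cubn at -2.38. Afp, a secreted protein of visceral endoderm, read 67.3 to 141 in E14 and 64.0 to 113 in ESVJ and overlapped. Feeder fibroblast markers, summed over 15 genes, came to 14712 to 16807 in E14, which grew without feeders, against 5440 to 5680 in ESVJ. Of the 8 tested, 3 were higher, Tagln, Acta2 and Col1a1 by 2.68, 2.59 and 1.45. The 2 lower were Col1a2 at -0.60 and Serpinf1 at -0.93, so the list did not move as one. The part of these cell state markers in the Apoe and Apoc1 differences was not tested.

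Calls among other lipid transport genes are read against the 42.6% of all probe sets that passed between these lines. Of 5 other apolipoproteins and lipoprotein-bound proteins tested, 3 were higher in E14 and none lower: Clu (clusterin) by 1.13, Pltp by 0.77 and Lcat, which esterifies cholesterol on high density lipoprotein, by 0.60 (adjusted p = 0.0327). Lcat (103023_at) averaged 178 ± 13.1 in E14 and 108 ± 28.9 in ESVJ (SD, n = 3 each). Of 9 transporters, 3 were higher, Npc2 by 0.50, Stard3 by 0.47 and Abca1 (94354_at) by 0.55, and none lower. The other Abca1 probe set, 97198_at, did not meet the filter in ES cells and was not tested. It read 49.4, 16.3 and 23.6 in E14, against 126, 91.6 and 113 in ESVJ, lower in E14 without overlap. The direction for Abca1 therefore depended on the probe set. Of 8 receptors and lipases 3 passed: Scarb1, the receptor of high density lipoprotein, was higher by 0.57, and Cubn, which takes up Apoa1 with its partners, and Angptl4 were lower, with log2 differences of -2.38 and -1.38. Of 9 genes of assembly and secretion 3 were higher and 2 lower, with Plin2, a coat protein of lipid droplets, at 2.00 and Apobec1 at -0.63, and of 13 genes of cholesterol synthesis none was higher and 3 were lower. With lists of 5 to 13 genes, nothing particular to them is read from these counts.

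Apoc1 and Apoe lie side by side on chromosome 7 between Apoc4 and Tomm40. Of the cluster's probe sets tested between E14 and ESVJ, only that of Apoc1 was below 0. Apoe was above 0 like the other neighbours tested, not all of which passed, and Apoc4 was not tested there. Between E14 and ESVJ, Clptm1 was at 1.04 (adjusted p = 0.000273) and Nectin2 at 0.89 for one probe set and 0.31 for the other (adjusted p = 0.000136 and 0.0818). Apoc2, the activator of lipoprotein lipase, was at 0.20 (adjusted p = 0.651), and Tomm40, a pore of the mitochondrial outer membrane, at 0.01 (adjusted p = 0.968). In the livers Apoc2 and Apoc4 were at -0.42 and -0.76, neither passing (adjusted p = 0.522 and 0.271). On chromosome 9, in the cluster of Apoa1 and Apoa4, the 3 probe sets of Apoa5 were at -0.45, -0.08 and -0.57 in the livers, none passing.

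**Figure D5:**
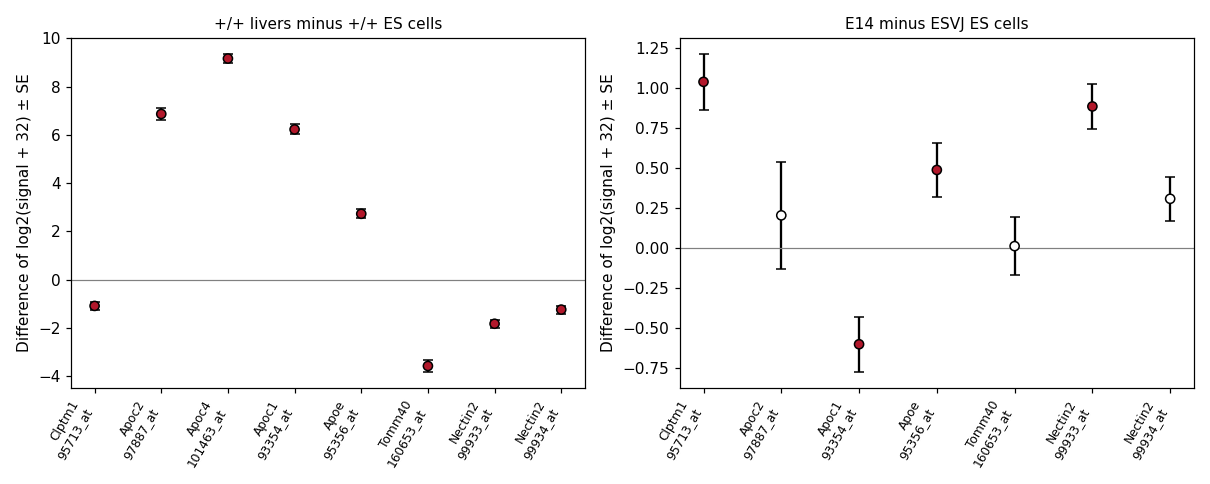
Difference of log2(signal + 32) ± SE for the probe sets around Apoc1 and Apoe in chromosome order, as +/+ livers minus +/+ ES cells (left) and E14 minus ESVJ (right); red points passed the threshold and white ones did not. On the right Apoc1 is at -0.60 and Apoe at 0.49.

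The genes with the most similar signal profile were named by the smallest root mean square difference of centred log2 signals. This likeness describes these arrays, whose main contrast is liver against ES cells. Over the 16 arrays Apob was nearest to Mst1, at 0.41, where the median over 7068 candidates was 2.33, and then to Gjb2 and Pigr. Apoa1 was nearest to Fabp1, the liver fatty acid binding protein, at 0.12, Apoa4 to Apoa5 at 0.36, and Apoh to Vtn, a plasma adhesion protein, at 0.25. Apoc1 was nearest to Hp, the haptoglobin gene, at 0.24, Apoa2 to Uox at 0.21 and Apoe to Fcna at 0.26. Over the 12 ES arrays alone, Apoe was nearest to Lcat (0.13), then Trip6 and Chpf, against a median of 0.42. Apoc1 was nearest there to Snora7a, Stip1 and Eif3k.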

How the data were processed

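Total RNA of 16 mouse samples (12 ES cell, 4 liver) was hybridised to U74Av2 arrays. Per the labels' protocols, the deposited intensity values, one per probe set and array, were normalized with Affymetrix MAS 5.0 at its defaults, and detection calls were not used here. Probe sets were named through the platform annotation: 10855 of 12488 had 1 gene symbol, 396 several and 1237 none.

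Each array was scaled to a trimmed mean of 500, 32 was added and log2 taken. limma 3.58.1 in R 4.3.3 (intensity trend) was run on probe sets with a mean of at least 100, the livers in one fit and the 12 ES arrays in another, with Benjamini-Hochberg adjustment over all probe sets. The tissue comparison used the +/+ arrays only, livers and ES cells in one fit. The interaction used the livers, the Abca1 +/- ES arrays and the ESVJ arrays in one fit. The fits were checked on simulated data. Replicate numbers follow accession order and pair nothing. Named genes were every member, up to 6 list genes per comparison by smallest p, and the nearest profiles. The members and gene lists were chosen with earlier results of these data known. Alternatives changed scaling, pseudocount, filter, trend and the arrays used. Arrays per group (2 or 3) limit the precision.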

Additional observations from a re-analysis of the deposited data

Results flagged for a closer look

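For Apob, the difference between the livers labelled Abca1 +/- and +/+ was larger than the difference between Abca1 +/- and ESVJ ES cells by 2.69 on the log2 scale (SE 0.36, limma's adjusted p = 0.0160 for the interaction of tissue and label). Apob read 4555 and 3749 in the livers labelled Abca1 +/-, against 789 and 715 in the livers labelled +/+, and 23.4 to 49.4 in Abca1 +/- ES cells, against 30.4 to 59.8 in ESVJ. All of its ES signals were below the filter of 100, so the ES arrays could show no comparable difference and the value restates that of the livers, 2.41 with an adjusted p of 0.0984, which did not pass. The interaction fit takes its spread mostly from the ES arrays, so its p does not measure the spread between livers.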

How the results depend on the processing

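No paired analysis was possible because the labels give the samples no replicate numbers. Of the comparisons' counts of member probe sets past the threshold, the liver count of 0 became 1 with no signal filter and with all 16 arrays in one fit. That probe set was Apob each time, and the fit of all 16 arrays takes its spread mostly from the ES arrays. Fits without 1 liver leave a group with 1 array, so their counts are not given. Where a group was left with 1 array, it was assumed to vary like the others. The count between E14 and ESVJ, 2, became 1 with no signal filter, with no intensity trend and with all 16 arrays in one fit, and ranged from 0 to 2 when 1 array was left out. The count of the interaction, 1, ranged from 0 to 2. Uncalled differences turned sign in the following cases. In the livers, quantile normalization gave 0.1041 for Apoa2 (161924_f_at) and -0.192 for Apoa2 (99648_at). Leaving out 1 liver at a time gave -0.4426 to 0.06291 for Apoa1, -0.3656 to 0.07232 for Apoa2 (161924_f_at), -0.1997 to 0.2354 for Apoa2 (99648_at) and -0.4322 to 0.07224 for Apoe. Leaving out 1 ES array at a time gave -0.06871 to 0.1962 for Apoc1 and -0.01078 to 0.2713 for Apoe between Abca1 +/- and ESVJ cells, and -0.2712 to 0.03092 for Apoc1 between Cdk4 +/- and E14 cells. In the interaction, Apoa2 (161924_f_at) ranged from -0.5741 to 0.03608. The cause was not tested. With 2 livers a group, the width of the intervals limits what can be called; ES signals of 5 members lie near the floor, where order is not informative.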
